A study of Mus musculus with 10 samples.

Results

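The cells described here are wildtype-labelled (YFP+) distal lung epithelial cells of mice with an oncogene-linked colour reporter, 2 weeks after induction, that carried transcripts of at least 3 of 7 gate genes: Spp1, Dlk1, Itga2, Cldn4, Krt19, Krt7 and Procr. They were 102 of the 5444 Ptprc-negative YFP+ cells of that time point, 48 from replicate 1 and 54 from replicate 2. A cell counted where its barcode had at least 1000 genes, at most 50000 unique molecules (UMIs), at most 15% mitochondrial UMIs and no UMI of Ptprc, the common leukocyte antigen. Since the members were selected on the values of these 7 genes, differences between them and the remaining YFP+ cells are a description and carry no test. They were set beside the 3797 RFP+ cells of the same time point that met the same rule, called marked RFP+ cells below, as the members are called marked YFP+ cells.

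The series holds 10 droplet libraries of EpCAM+ lineage-labelled cells from adult mice of mixed background (C57BL/6Brd-Tyrc-Brd), each pooled from at least 2 lungs. All mice carried Sftpc-CreERT2, which recombines in AT2 cells, and all received 3 tamoxifen doses of 0.2 mg/gbw. In the oncogenic reporter lungs, RFP+ cells express the oncogene, whereas the YFP+ cells that share their lungs do not. Sftpc-CreERT2; R26R-Confetti lungs, in which both colours are wildtype, gave 1 RFP+ and 1 YFP+ library. The oncogenic reporter gave 2 libraries of each colour at 4 days and 2 at 2 weeks. Colour came from the sort and could not be checked in the transcripts, because the matrices have no feature for either fluorescent protein. Where replicate libraries are compared, p-values measure the spread between pooled libraries.

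AT2 cells secrete surfactant and renew the alveolar epithelium, and they give rise to the flat AT1 cells of gas exchange. After injury some pass through a transitional state with stress keratins, claudins and reduced surfactant genes before they become AT1 cells, and related states appear in AT2 cells that carry an oncogene. Of the genes that define the rule, Spp1 encodes the secreted matrix protein osteopontin, Dlk1 a Notch ligand relative, Itga2 the collagen-binding integrin subunit alpha 2, Cldn4 a tight junction claudin, Krt19 and Krt7 simple epithelial keratins, and Procr the endothelial protein C receptor.

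Across the 4 libraries of 2 weeks, 1138 to 4306 Ptprc-negative cells per library passed the quality rule. Any 2 libraries shared 1 to 17 barcodes, and 1 of the 102 members had a barcode that also occurred in another library. Marked YFP+ cells were deeper than the other YFP+ cells. Their median was 12561 UMIs against 5812.5 in replicate 1 and 13083.5 against 6493 in replicate 2, and members ranged from 3577 to 45881 UMIs. Their median mitochondrial share was lower than that of the other cells, at 1.97% against 2.62% and at 1.78% against 2.23%. Scrublet scores placed 4 of 48 and 0 of 54 members among the likely doublets, against 5.28% and 2.49% of the other cells. In replicate 1, 3 of 48 members (6.25%) had UMIs of both Xist and Y-linked genes, against 0.798% of its other cells, and that library held cells of both sexes. Replicate 2 gave no such measure, because 388 of its other cells had Y-linked UMIs alone and 2 had Xist alone. The part of depth and of mixed barcodes in the results was not tested.

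Cells that met the rule were rare among wildtype-labelled cells and common among mutant cells of the same time point. They made up 1.11% of YFP+ cells in replicate 1 (exact 95% interval 0.823 to 1.48%) and 4.75% in replicate 2 (3.58 to 6.15%), a mean of 2.93% ± 2.57 (SD, n = 2). In the RFP+ libraries the share was 48.4% and 64.2%, a mean of 56.3% ± 11.2 (SD, n = 2). The colours did not overlap, and the RFP+ share was 43.4 times the YFP+ share between the libraries numbered 1 and 13.5 times between those numbered 2. An exact permutation test of 2 against 2 libraries cannot give a two-sided p below 0.333, and these intervals cover counting error only. RFP+ cells were 97.4% of all 3899 cells that met the rule at 2 weeks and 56.0% of the 12369 cells examined.

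At the other points of the design the share in wildtype cells was lower still. It was 0.255% and 0.340% in the Confetti RFP+ and YFP+ libraries, and 0.767% and 0.502% in the YFP+ libraries at 4 days. The 4 day RFP+ libraries differed widely from each other, at 2.79% and 27.3%. The few Confetti passers and those of YFP+ replicate 1 at 4 days differed from the members in what they carried. Those of YFP+ replicate 2 at 4 days lay nearer to the members. At least 1 of Spp1, Itga2 and Dlk1 was present in 23 of 48 and 43 of 54 members, in 1 of 10 and 1 of 14 Confetti passers, and in 1 of 14 and 4 of 15 YFP+ passers at 4 days. At least 2 markers of another cell type were carried by 5 of 10 and 9 of 14 Confetti passers and by 10 of 14 and 4 of 15 YFP+ passers at 4 days, against 9 of 48 and 7 of 54 members. Without such cells the shares were 0.148% and 0.141% in Confetti, 0.273% and 0.396% at 4 days, and 0.999% and 4.99% in the YFP+ libraries of 2 weeks. With a requirement of 4 genes, 23 of 4306 (0.534%) and 40 of 1138 (3.51%) YFP+ cells of 2 weeks remained, against 0 of 3914 and 0 of 4121 Confetti cells, whose exact upper limits are 0.0942% and 0.0895%. At 4 days it was 0 of 1826 and 6 of 2989 (0.201%) YFP+ cells.

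**Figure D1:**
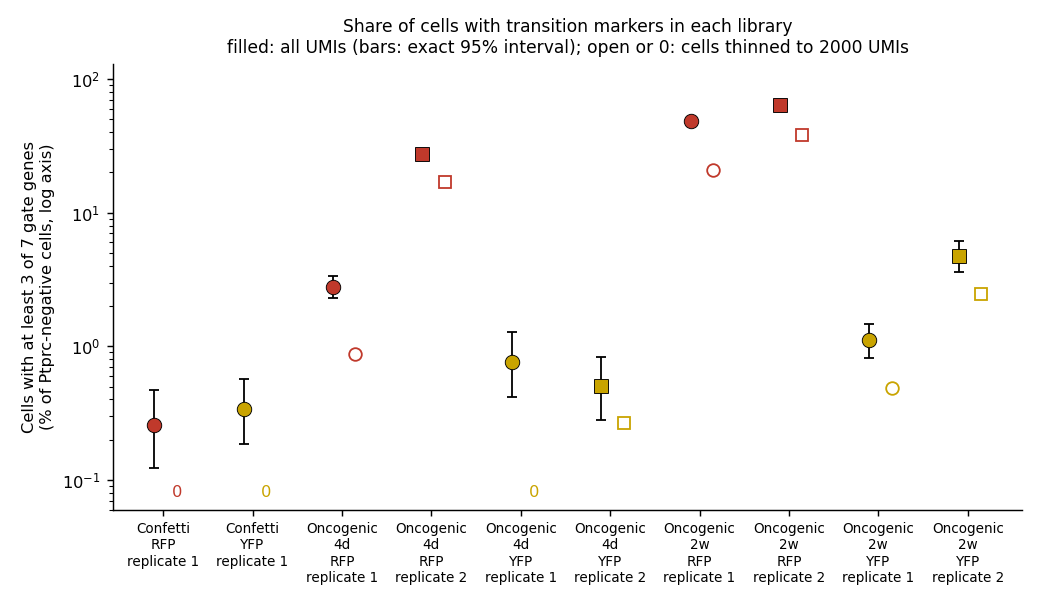
The share of Ptprc-negative cells with at least 3 of the 7 genes in each of the 10 libraries, in percent on a log axis, with exact 95% intervals that cover counting error. Open symbols show the same share with each cell thinned to 2000 UMIs, and 0 marks libraries in which no thinned cell met the rule. The YFP+ libraries of 2 weeks, at 1.11% and 4.75%, sit above the Confetti libraries and far below the RFP+ libraries of 2 weeks, at 48.4% and 64.2%.

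Deeper cells met the rule more often over most of the depth range. In YFP+ replicate 1 it was 0.403% of cells with 4000 to 8000 UMIs, 1.67% of those with 8000 to 12000 and 10.1% of those with 12000 to 16000, and in replicate 2 the same ranges held 0.989%, 5.67% and 32.3%. The order did not hold at the ends of replicate 2, where 3 of 126 cells with up to 4000 UMIs (2.38%), 8 of 10 with 16000 to 24000 and 12 of 16 with more met the rule. With each cell thinned to 2000 UMIs, 21 of 4299 (0.488%) and 28 of 1138 (2.46%) YFP+ cells still met the rule, against 20.9% and 37.8% of RFP+ cells and 0 of 3906 and 0 of 4102 Confetti cells. Thinning left out 7 and 0 YFP+ cells and 6 and 2 RFP+ cells with fewer UMIs. Of the Ptprc-positive cells of the same YFP+ libraries, at median depths of 6236 and 7256 UMIs, 7 of 139 (5.04%) and 13 of 608 (2.14%) met the rule, and in the RFP+ libraries 18 of 149 and 112 of 699 did. These shares are no measure of free RNA alone, because leukocytes also held Spp1, Krt19 and Procr more often than the other YFP+ cells did. In replicate 1, Krt19 had UMIs in 34.5% of them against 23.7% of other YFP+ cells, and Procr in 9.35% against 0.09%. Cldn4 and Itga2 were rare in leukocytes, with Cldn4 in 1 of 139 and 1 of 608 and Itga2 in 1 and 3 cells. At 5 or more genes 1 of 139 and 1 of 608 leukocytes passed, with exact upper limits of 3.94% and 0.913%. Of the Ptprc-negative YFP+ cells it was 0.325% in replicate 1 and 2.02% (1.29 to 3.02%) in replicate 2. These counts rest on the genes of the rule and on cells of single libraries, so they are a description and carry no test.

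The 7 genes were unevenly spread over the members, as the selection on any 3 of them allows. The common keratins led. Krt7 (chr15:101411043-101430313, plus strand, GRCm38) was detected in 48 of 48 and 54 of 54 members, and Krt19 (chr11:100140810-100148665, minus strand) in 46 and 53. Both keratins were also present in other YFP+ cells, Krt7 in 33.8% and 39.9% and Krt19 in 23.7% and 23.2%, so each alone separates little. Cldn4 (chr5:134945119-134946934, minus strand) was detected in 42 and 41 members and in 0.56% and 0.83% of the other YFP+ cells. Itga2 (chr13:114833081-114932100, minus strand) was found in 22 and 28 members, in 0.09% of the other cells of replicate 1 and in 0 of 1084 of replicate 2.

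The secreted and surface genes varied more between the libraries. Spp1 (chr5:104435118-104441050, plus strand) was detected in 15 of 48 members of replicate 1 and 32 of 54 of replicate 2, at 2685 and 1134 CPM (UMIs summed over cells and scaled to the same total in each sum). In the other YFP+ cells Spp1 was found in 0.26% and 5.90%, at 2.60 and 95.4 CPM, so its background was higher in replicate 2. Procr (chr2:155751117-155755471, plus strand) was found in 14 and 23 members at 164 and 490 CPM, and in replicate 1 a single cell held 77.5% of its UMIs. Dlk1 (chr12:109452823-109463336, plus strand) was the rarest, in 6 and 7 members. In Ptprc-positive cells Spp1 had UMIs in 37.4% and 67.8% and Cldn4 in 0.72% and 0.16%. Marked RFP+ cells held the same genes in a like order, with Spp1 in 62.6% and 48.6%, Itga2 in 1050 of 1981 and 986 of 1816 cells and Cldn4 in 69.1% and 73.6%.

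The most frequent combination in the members was Cldn4, Krt19 and Krt7 with none of the other 4 genes, in 29 cells, of which 21 came from replicate 1. All genes but Dlk1 were present in 14 cells. At least 5 of the 7 genes were found in 14 members of replicate 1 and 23 of replicate 2, and exactly 3 in 25 and 14. Next to the threshold, 434 and 149 YFP+ cells had exactly 2 of the genes and stayed outside.

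**Figure D2:**
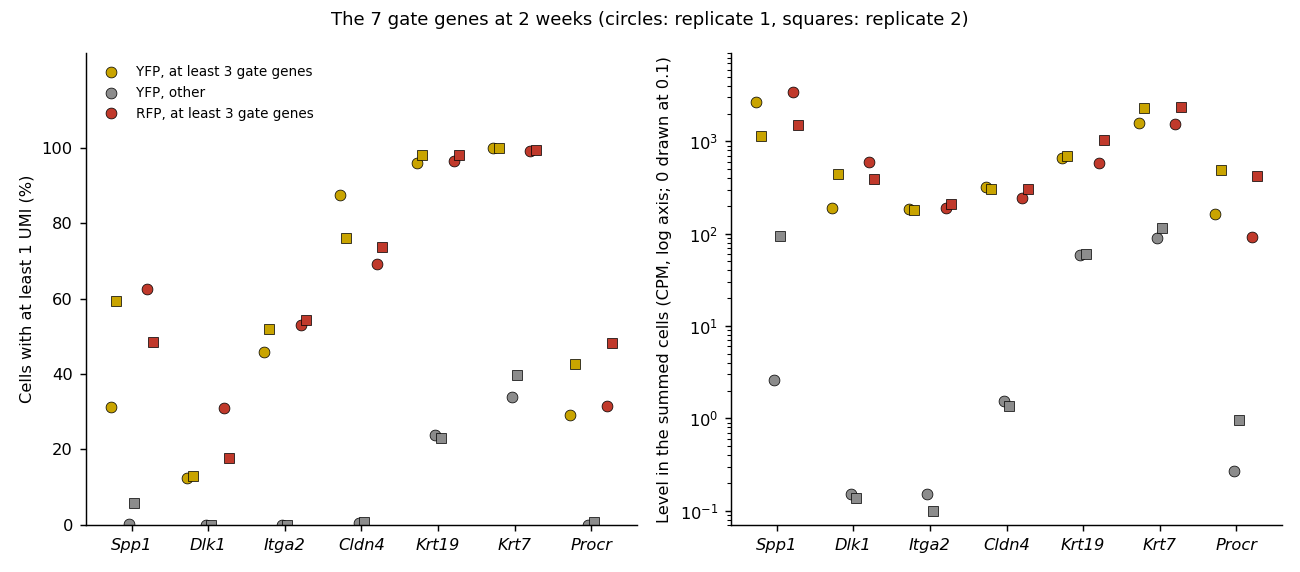
The percentage of cells with at least 1 UMI of each gate gene (left) and its level in CPM on a log axis (right), in marked YFP+, other YFP+ and marked RFP+ cells, with circles for replicate 1 and squares for replicate 2. Krt7 and Krt19 are near 100% in both marked groups and above 20% in other YFP+ cells, while Cldn4 and Itga2 are under 1% there.

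Outside the 7 genes, the members were set apart from the other YFP+ cells by lower surfactant genes and higher transition genes. Of 7802 genes with enough UMIs, 707 (9.06%) were at least 1 log2 unit higher in members in both libraries and 465 (5.96%) at least 1 lower. These shares describe what came with the selection, which took deeper cells more often, and the part of depth in them was not tested. Of 10 AT2 genes, 9 were at least 1 log2 unit lower in both libraries, with medians of -1.81 and -1.74. Sftpc, the surfactant protein C gene, was at 23990 and 35153 CPM in members against 132170 and 159252 CPM in the other cells. Slc34a2, a phosphate transporter of AT2 cells, was at 428 and 599 CPM against 2353 and 2232. The exception was Sftpb, surfactant protein B, at 3845 and 6361 CPM against 6357 and 6247. Lyz2 and the lipid genes Scd1 and Apoe were among the 10 lowest genes. Scd1, a fatty acid desaturase, was at 754 and 269 CPM against 6663 and 7382.

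Of 14 transition genes that the rule did not use, 12 were at least 1 log2 unit higher in both libraries, with medians of 2.34 and 3.07. Krt8, a keratin of the transitional state, was at 1410 and 1289 CPM against 360 and 215, and it was detected in every one of the 102 members. Clu, which encodes the secreted chaperone clusterin, was at 9962 and 8574 CPM against 395 and 290. Areg, an epidermal growth factor receptor ligand, was at 1661 and 1360 CPM against 308 and 65.8. The related ligand Ereg was at 228 and 87.5 CPM against 1.53 and 0.41. Lgals3 and Anxa3 were the list members short of this difference.

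All 8 genes of a list taken from states of the mutant cells in this series were also higher, with medians of 5.35 and 5.02 log2 units. The list was chosen on these libraries and is not independent evidence of its direction. Gzme, a granzyme gene, was at 1408 and 463 CPM, with UMIs in 12 of 48 and 20 of 54 members. In the other cells of replicate 1 it was at 0.19 CPM, with UMIs in 5 of 4258 cells. In those of replicate 2 it had UMIs in 1 of 1084 cells, too few to count as a level. F3, the coagulation initiator tissue factor, was at 340 and 478 CPM against 6.32 and 2.75. Hmga2, a chromatin protein gene, was at 93.1 and 35.2 CPM in members. In other YFP+ cells its UMIs were fewer than 3, the smallest number counted as a level here. By the size of the smaller difference, S100a6, a calcium-binding protein gene, was also among the 15 leading genes, at 14754 and 21676 CPM against 93.2 and 215, with UMIs in 39 of 48 and 48 of 54 members and in 11.0% and 17.1% of the other cells. Prss22, Aldh1a3, Gkn2 and Fxyd3 stood in the same group.

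**Figure D3:**
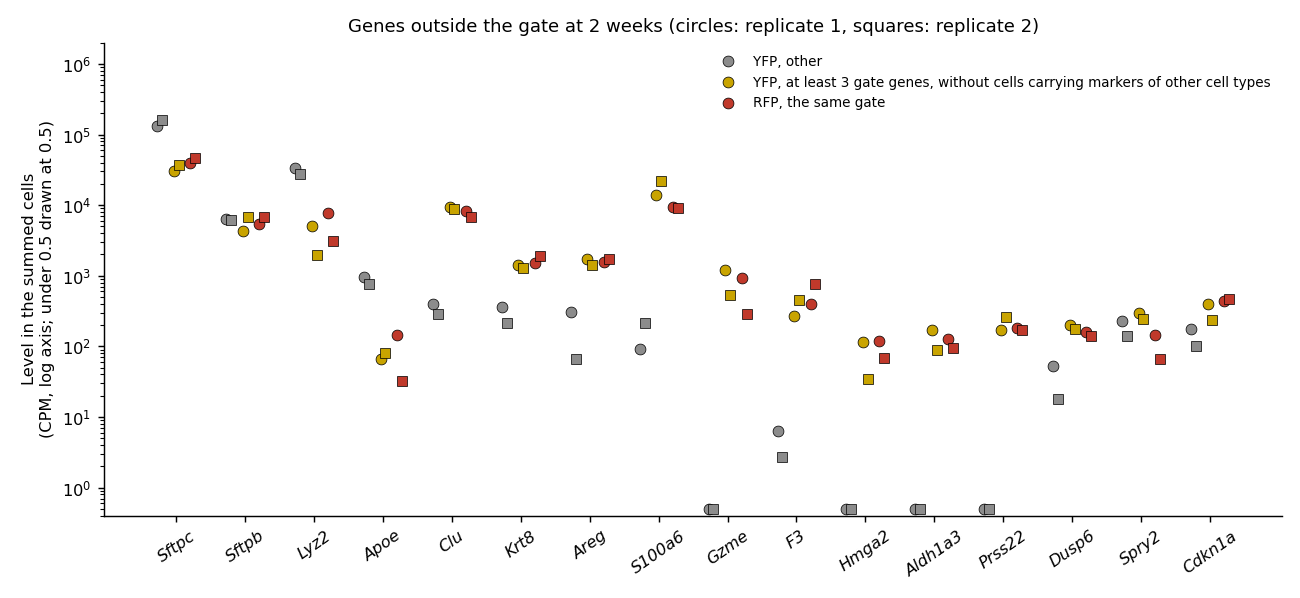
Levels of genes that the rule did not use, in CPM of the summed UMIs on a log axis, with circles for replicate 1 and squares for replicate 2. Marked YFP+ and marked RFP+ cells are shown without cells that carry markers of another type, and levels under 0.5 CPM are drawn at 0.5. For Sftpc the marked YFP+ libraries lie below the other YFP+ libraries, for Krt8, Clu, Gzme and S100a6 above them, and in each of these genes they lie nearer to the marked RFP+ libraries.

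Signalling and stress lists moved less evenly, and their counts stand beside the 9.06% of all genes that were at least 1 log2 unit higher in both libraries and the 5.96% that were lower. Of 14 genes that report ERK activity, 8 were higher in members in both libraries and 1 was lower. The phosphatase gene Dusp6 was at 204 and 170 CPM against 52.3 and 18.0, and the lower gene was Etv5, an AT2 transcription factor gene, at 87.2 and 45.5 CPM against 250 and 207. Of 8 p53 targets, 5 were higher, with Gdf15, a stress-induced cytokine gene, at 489 and 352 CPM against 58.9 and 39.1. Of 12 NF-kB targets 4 were higher (2 without cells carrying markers of another type), among them the inhibitor gene Nfkbia at 513 and 215 CPM against 223 and 89.8. Ccl20, a chemokine gene of this list, was at 649 CPM in members of replicate 1 and 12.5 CPM in those of replicate 2, and its UMIs came from 13 and 2 cells.

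Read against the same 9.06%, 4 of 9 junction and adhesion genes were higher, among them the integrin gene Itgb4 at 45.8 and 27.3 CPM. In the other YFP+ cells Itgb4 was at 0.38 CPM in replicate 1 and had fewer than 3 UMIs in replicate 2. Of 10 AT1 genes 3 were higher, namely Hopx, Pdpn and Akap5 (1 of 10 without cells carrying markers of another type), while the AT1 receptor gene Ager was lower in members, at 533 and 544 CPM against 998 and 1132. Lcn2, Lrg1 and Il33 were lower among the 8 primed AT2 genes. Of 10 cycling genes 1, Cdk1, was at least 1 log2 unit higher in both libraries, a share near that of all genes. The libraries differed here, with list medians of 1.24 in replicate 1 and 0.048 in replicate 2. Mki67, a proliferation marker, was detected in 11 of 48 and 2 of 54 members (22.9% and 3.70%), against 5.33% and 2.77% of the shallower other YFP+ cells and 24.5% and 8.09% of marked RFP+ cells. Its level was 29.6 and 4.55 CPM in members against 14.2 and 9.47 CPM in the other YFP+ cells. None of the 6 MHC class II and 6 immediate early genes passed this difference in both libraries.

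Members were not uniform, and the number of the 7 genes a cell carried went with its other transcripts. Cells with exactly 3 of the genes held 45164 and 69918 CPM of Sftpc and 1188 and 1070 CPM of Clu. Cells with 5 or more held 8770 and 18199 CPM of Sftpc and 19538 and 12053 CPM of Clu. The cells just outside the rule, with exactly 2 genes, held 112352 and 129703 CPM of Sftpc and 601 and 397 CPM of Clu. Those just inside the threshold thus kept more Sftpc and little Clu, and S100a6 showed the same split, at 412 and 2337 CPM with exactly 3 genes and 27938 and 33570 CPM with 5 or more. Gzme was at 10.6 CPM in replicate 1 with exactly 3 genes, and in replicate 2 its UMIs in such cells were fewer than 3, too few to count as a level. With 5 or more genes Gzme was at 3485 and 554 CPM. Single members ranged from 238 to 173242 CPM of Sftpc in replicate 1, with a median of 4606, and from 0 to 256752 CPM in replicate 2, with a median of 18289. By these levels the label of transition markers described the members with more of the 7 genes better than the 39 with exactly 3. Depth differed as well, at medians of 10245 and 8541.5 UMIs with exactly 3 genes and 17882 and 16573 with 5 or more. The part of depth in this split was not tested.

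Some members carried markers of other lung cell types. At least 2 markers of a list for another type were found in 9 of 48 and 7 of 54 members, against 9.21% and 17.4% of the other YFP+ cells and 17.0% and 9.09% of marked RFP+ cells. Ciliated markers accounted for 4 cells in each replicate (8.33% and 7.41%, against 4.29% and 0.936% of marked RFP+ cells), and airway secretory markers for 8 and 5 cells. Krt7, Krt19 and Cldn4 are also made in airway epithelium. Foxj1, the transcription factor of motile cilia, was at 25.1 and 11.4 CPM in members, from 3 cells in each replicate. Scgb1a1, the club cell secretoglobin, was at 66603 CPM in replicate 1, where 1 cell held 46.2% of its UMIs, and at 123 CPM in replicate 2. No member had 2 markers of the basal, mesothelial, mesenchymal, endothelial or lymphocyte lists.

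Whether marked wildtype-labelled cells differed from marked mutant cells was tested on summed UMIs per library, with edgeR's quasi-likelihood test of 2 YFP+ against 2 RFP+ libraries. Of 12692 genes, 41 (0.323%) passed a Benjamini-Hochberg adjusted p of 0.05, with 40 higher in YFP+ cells (0.315%) and 1 higher in RFP+ cells (0.00788%). The genes higher in YFP+ cells were led by genes of cilia, and 7 of the 8 fixed ciliated markers were among them. Tmem212 was at 93.1 and 72.7 CPM in YFP+ and 3.93 and 3.84 CPM in RFP+ cells, a log2 difference of 4.45 (SE 0.32, edgeR adjusted p = 0.00303). Foxj1 differed by 4.17 (SE 0.59, edgeR adjusted p = 0.031). The call was lost without YFP+ replicate 1, without RFP+ replicate 1 and without likely doublets (edgeR adjusted p = 0.154 in the last). The log2 differences there were 3.63, 4.01 and 3.63. The gene higher in RFP+ cells was Hbb-bs, a haemoglobin gene of red blood cells, at 353 and 134 CPM in RFP+ and 13.3 and 3.41 CPM in YFP+ cells, with a log2 difference of -4.89 (SE 0.65, edgeR adjusted p = 0.0249). In the other YFP+ cells Hbb-bs was at 387 and 4.26 CPM, so its level also moved between libraries of one colour. The level of Hbb-bs in members rested on 9 and 3 UMIs. Its call was lost without YFP+ replicate 1 (log2 difference -6.01) and without YFP+ replicate 2 (-4.22). Of the 10 named genes that were higher in RFP+ cells, Hbb-bs was the one that passed. The count of 41 was 9 without YFP+ replicate 1 and 95 without RFP+ replicate 1. It was 3 without likely doublets, 183 with DESeq2 (176 higher in YFP+ and 7 in RFP+) and 235 with no filter on low counts (217 and 18). With replicate number as a block it was 454 (339 and 115), and all 20 genes named by p passed. Neither the count nor the single gene higher in RFP+ cells was therefore stable.

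Once cells with markers of another type were removed from both colours, which left 39 and 47 members, edgeR called 0 of 12177 genes (0%), with 405 at an unadjusted p under 0.05 and a smallest adjusted p of 0.105. The libraries of the colours did not overlap for 33.9% of these genes, against 37.0% of the 12692 genes with all members. With cells of 5 or more of the 7 genes it called 0 of 11390, with 495 unadjusted. The ciliated markers helped to choose the cells left out, so the loss of the ciliated calls follows from the removal. Hbb-bs did not pass there either, with a log2 difference of -4.74 at an edgeR adjusted p of 0.105. A count of 0 does not show that the colours were alike. At this size the median half-width of a gene's 95% interval was 1.03 log2 units over all 12692 genes.

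For the genes of the transition program the differences between the colours were small beside their intervals. The 14 transition genes had a median log2 difference of -0.18 (YFP+ minus RFP+), with single genes from -0.46 to 0.40, beside a median of -0.06 over all genes tested, and none passed the test. Krt8 was at 1410 and 1289 CPM in marked YFP+ and 1443 and 1851 CPM in marked RFP+ cells, a difference of -0.26 (95% interval -1.06 to 0.54). Clu was at 9962 and 8574 against 7820 and 6612 CPM, a difference of 0.40 (-0.47 to 1.27). The 8 mutant state genes had a median of -0.16, and Gzme differed by 0.55 (-0.85 to 1.95), with its RFP+ levels at 1027 and 280 CPM. Each of these intervals includes differences of about 1 log2 unit in at least 1 direction. None of the 10 AT2 genes passed, with a median of -0.55, and 6 of them were lower in both YFP+ than in both RFP+ libraries, whereas over all genes 21.4% were. Without cells carrying markers of another type it was 3 of 10, against 20.9% of all genes, and the median was -0.27. In cells with 5 or more of the gate genes it was again 6 of 10, with a median of -0.82, against 23.1% of all genes. Sftpc was at 41613 and 49220 CPM in marked RFP+ cells, a difference of -0.57 (-1.65 to 0.52). The directions of Krt8, Clu, Gzme and Sftpc were not stable. Without RFP+ replicate 2 Krt8 was at 0.041 and Gzme at -0.03, and after thinning Clu was at -0.090 and Sftpc at 0.35.

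Some genes stood apart without passing the correction in this test, which treats the 4 libraries as unpaired. With replicate number as a block, Spry2, Isg15 and Lrg1 passed it, and the labels do not say what a number marks. Spry2, a feedback inhibitor of receptor tyrosine kinase signalling, was at 284 and 233 CPM in marked YFP+ and 140 and 65.5 CPM in marked RFP+ cells, a log2 difference of 1.39 (95% interval 0.51 to 2.27, edgeR adjusted p = 0.347). Its level in the other YFP+ cells was 229 and 139 CPM. S100a6 differed by 1.13 (0.14 to 2.13, edgeR adjusted p = 0.766). Of 6 interferon-response genes, 4 were higher in both YFP+ libraries, with a median of 1.45, against 15.6% of all genes. Isg15 was at 160 and 83.0 CPM against 22.5 and 46.3 CPM (1.81, interval 0.79 to 2.84, edgeR adjusted p = 0.229). In cells with 5 or more of the 7 genes the interferon median was -0.48. Lrg1, an acute-phase gene of primed AT2 cells, was lower in YFP+ cells, at 415 and 385 against 1026 and 979 CPM (-1.29, interval -2.02 to -0.55, edgeR adjusted p = 0.233). With DESeq2, Isg15 and Lrg1 passed, at adjusted p of 0.0207 and 0.000392, and Spry2 did not, at 0.0638. With no filter on low counts, Spry2 and Isg15 passed in edgeR, at adjusted p of 0.0428 and 0.000367, and Lrg1 did not, at 0.0798.

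**Figure D4:**
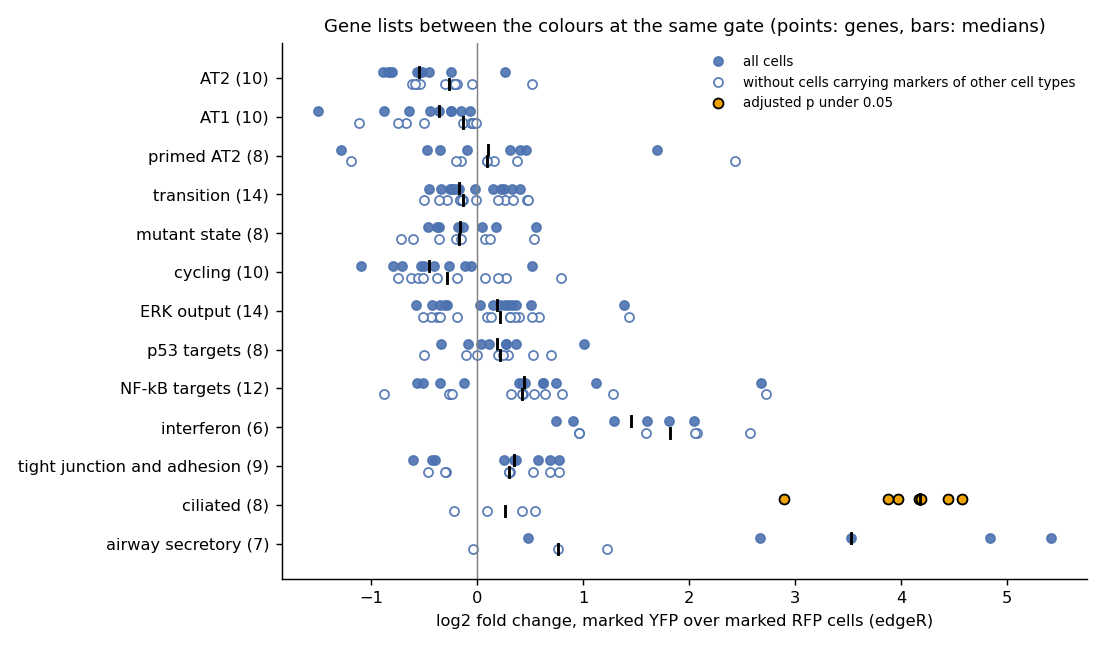
The log2 difference between marked YFP+ and marked RFP+ cells for each gene of the fixed lists, with all members and without cells that carry markers of another type, and the median of each list as a bar. Numbers beside the names count the genes of a list, and orange points passed an adjusted p of 0.05. Ciliated genes lie near 4 with all members, and since these markers chose the cells left out, their open points (4 of 8 genes) follow from the removal. The transition and mutant state lists lie near 0 with and without those cells.

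Where the members lay among all cells of 2 weeks was examined by clustering the 4 libraries without the 7 genes. Of the 102 members, 72 (70.6%) fell into 6 clusters in which more than 90% of cells were RFP+, namely 26 of 48 in replicate 1 and 46 of 54 in replicate 2. The same clusters held 115 of 5342 other YFP+ cells (2.15%) and 3226 of 3797 marked RFP+ cells (85.0%). They also held 1947 of the 3128 RFP+ cells that did not meet the rule (62.2%), so they were not particular to marked cells. The number of genes carried again separated the members. Of those with exactly 3 genes 13 of 39 were in these clusters, of those with 4 it was 23 of 26, and of those with 5 or more 36 of 37.

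Some clusters of this kind drew members from both libraries and others mainly from one. The largest group, 8 and 16 members, was in a cluster led by Aldh1a3, F3 and Hmga2, which held a single other YFP+ cell and 430 and 399 RFP+ cells. A cluster led by Meg3, Kng2, Trf and Cd38 held 1 and 19 members, and one led by Hopx, Akap5, Ndnf and Procr held 2 and 10. A cluster led by Mcpt8, Gzme and Mcpt2 held 9 members of replicate 1, none of replicate 2 and no other YFP+ cell. In the clusters led by Mcpt8 and by Meg3 the RFP+ libraries were split in the same direction, with 379 and 7 cells in the first and 82 and 1394 cells in the second. For these clusters replicate number went with cluster in both colours, and lungs, sort and library preparation cannot be told apart for these differences. Of the other 30 members, 4 and 3 lay in clusters of mostly YFP+ cells (3.05% and 9.11% RFP+), led by Hspb1 and Cox6a2 and by Scgb1a1 and S100g. The rest lay in clusters of mixed colour: 7 in a ciliated-like cluster with Tmem212, Ccdc153 and Fam183b among its leading genes, 9 in a cluster led by Ccl20 and Iigp1, all from replicate 1, and 7 in a cluster led by Ube2c, Cdk1 and Top2a.

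**Figure D5:**
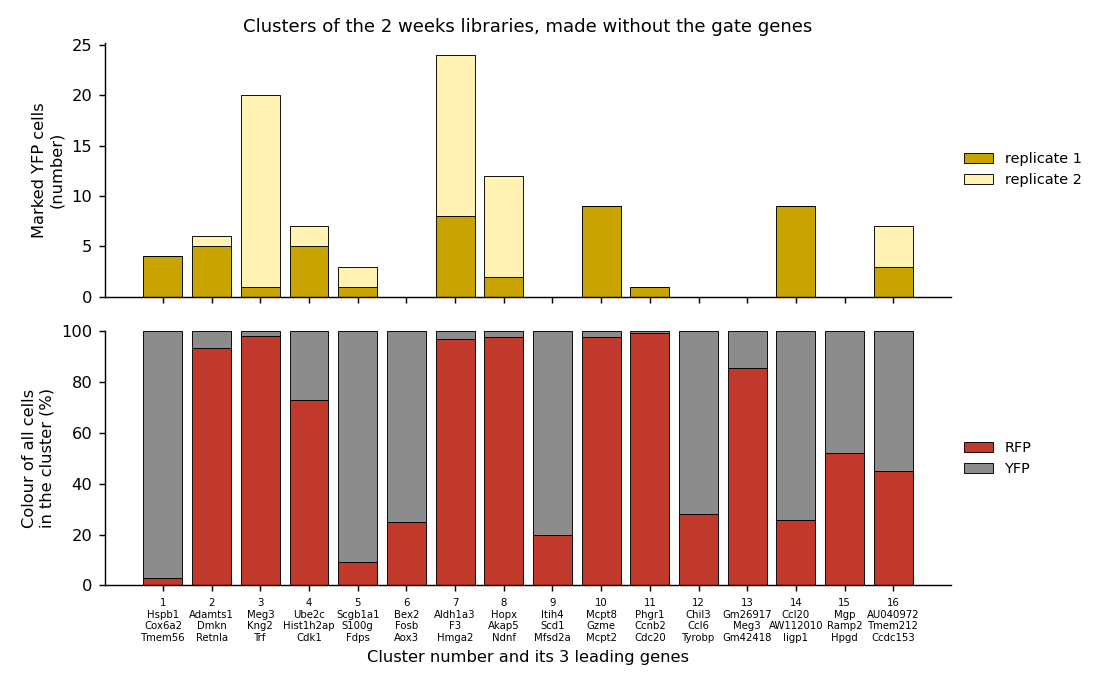
The number of marked YFP+ cells in each cluster by replicate (top), above the percentage of the cluster's cells of each colour (bottom), with clusters named by number and 3 leading genes. Of the 102 members, 72 are in clusters with more than 90% RFP+ cells, and the clusters led by Meg3 and by Mcpt8 each draw almost all of their members from 1 replicate.

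Nearest neighbours, from which the clusters were also built, describe the same placement without cluster borders. Among the 20 nearest cells of the 4 libraries, most were RFP+ for 32 of 48 members (66.7%) of replicate 1 and 50 of 54 (92.6%) of replicate 2. This compares with 2.65% and 2.58% of the other YFP+ cells and 98.4% and 99.8% of marked RFP+ cells. For RFP+ cells that did not meet the rule the shares were 85.9% and 95.3%. With at least 4 of the 7 genes, 22 of 23 and 40 of 40 members had mostly RFP+ neighbours. Thinned to 2000 UMIs per cell the counts were 30 of 48 and 49 of 54, and without cells carrying markers of another type 27 of 39 and 45 of 47. When neighbours were sought only within the 2 libraries of one number, 29 of 48 and 50 of 54 members had mostly RFP+ neighbours. In these libraries the transcripts outside the 7 genes thus placed most members next to cells sorted as RFP+. RFP+ cells were 97.4% of all cells that met the rule at 2 weeks, so like cells were almost all RFP+. The placement is a description and carries no test. The sort colour of the members could not be checked in the transcripts.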

How the data were processed

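Dissociated distal lung cells were sorted as EpCAM+ and RFP+ or YFP+ and sequenced as 10x Genomics libraries. The authors deposited filtered UMI counts per gene and barcode (31053 genes). The submitters' processing notes name Cell Ranger 3.1.0 and GRCm38, while the matrix header names version 5.0.1. Raw counts keep free RNA and doublets, which no step removed by default. The members and gene lists were chosen with earlier results of these data known. Cells were selected as stated in the report with Python 3.11.15. UMIs were summed per library, and genes passing edgeR's filterByExpr were fitted with edgeR 4.0.16 (TMM, quasi-likelihood F test, Benjamini-Hochberg adjustment) on the 4 libraries of 2 weeks, after a test on simulated data. The summed UMIs of marked cells were 676789 and 879920 in YFP+ and 42248100 and 28413362 in RFP+ libraries. CPM values are summed UMIs scaled to a common total, and ratios of marked to other cells add 1 CPM. Clusters (Louvain, resolution 0.8) and neighbours used 5000 variable genes and 30 components in scanpy 1.11.5, without the 7 selecting genes.

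Named genes were the 7 selecting genes, members of the lists, the 10 genes of smallest p in each direction among those with at least 20 CPM and libraries that do not overlap, and the 15 most raised and 10 most lowered genes against other YFP+ cells among those with at least 50 CPM. Alternatives were DESeq2 1.42.0, no filter, other thresholds of the rule, thinning, removal of likely doublets or of cells with at least 2 markers of another type, each library left out and replicate number as a block.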

Additional observations from a re-analysis of the deposited data

Results flagged for a closer look

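Among the list members and named genes, 6 moved one way in every YFP+ library and the other way in every RFP+ library. These are changes between marked and other cells at 2 weeks. They were not tested, and the same count was not made over all genes. The mean log2 change of Top2a, a topoisomerase of dividing cells, was 1.12 in YFP+ and -0.24 in RFP+ libraries, a difference of 1.35. The ciliated genes Dynlrb2 (1.31 and -1.70), Tppp3 (0.96 and -1.18) and Cfap126 (2.36 and -1.05) differed by 3.01, 2.14 and 3.41. Ciliated markers were carried by 8 members. Nfkbiz, an NF-kB regulator, changed by 0.16 and -0.24, a difference of 0.41, and Hbb-bs by -2.51 and 2.49, a difference of -5.00.

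Ptprc-positive cells, which the comparisons left out, met the rule in 5.04% and 2.14% of cases in the YFP+ libraries of 2 weeks (exact 95% intervals 2.05 to 10.1% and 1.14 to 3.63%). In the Confetti libraries 0 of 66 and 1 of 56 did, with upper limits of 5.44% and 9.55%, so the intervals overlap. Their part in the members' values was not tested.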

How the results depend on the processing

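The count of genes that differed between marked YFP+ and marked RFP+ cells, 41, depended most on the processing. It was 183 with DESeq2, 235 with no filter and 454 with the replicate block (339 higher in YFP+ and 115 in RFP+), and between 9 (without YFP+ replicate 1) and 95 (without RFP+ replicate 1) when 1 library was left out, where the lone library is assumed to vary like the others. It was 3 without likely doublets and 0 after thinning, without cells carrying markers of another type, and at 2, 4 or 5 genes. Of the 20 genes named by smallest p, 11 passed. With the replicate block 20 did, with 1 library left out 7 to 14, without likely doublets 3, and 0 after thinning, without cells carrying markers of another type and at 2, 4 or 5 genes. The labels do not say what a replicate number marks, and same-numbered libraries deviated together (correlation 0.384); both libraries numbered 1 held cells with Xist and cells with Y-linked transcripts, whereas no marked cell of the libraries numbered 2 had Xist alone. With the replicate block Spry2 (1.44e-08), Lrg1 (5.59e-05) and Isg15 (6.18e-14) also passed, and with no filter Spry2 (0.0428) and Isg15 (0.000367) did. Over all alternatives their edgeR or DESeq2 adjusted p ran from these block values up to 1.00, with the highest without RFP+ replicate 2 or without cells carrying markers of another type. The cause of these changes was not tested. The YFP+ share moved to 14.5% at 2 genes, and the RFP+ share to 78.5% at 2 genes, 38.6% at 4, 41.2% with 2 UMIs per gene and 29.3% after thinning. A mean share counted as moved where it changed by at least the SD of its 2 libraries. For YFP+ that SD was 2.57 on a mean of 2.93%, so the rule is wide. After thinning the YFP+ shares fell from 1.11% and 4.75% to 0.488% and 2.46% without counting as moved. The 707 genes higher in members than in other YFP+ cells were 1055 to 1204 in 1 library alone (1204 without YFP+ replicate 1). The majority of RFP+ neighbours in members held under every alternative run.

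Of 438 values for 35 genes, 24 changed direction. These were Tmem212 (-0.22 without cells carrying markers of another type, -0.52 at 5 genes), Tppp3 (-0.77 at 5 genes), Scgb1a1 (-0.57 thinned) and Ccl20 (-1.87 thinned, -1.97 at 5 genes). At 2 genes they were Hbb-bs (1.00), Hba-a1 (0.83), Ptpn1 (0.20), Itm2a (0.48), Clu (-0.75), Gzme (-1.01), Sftpc (0.72) and Dusp6 (-0.55). After thinning they were also Itm2a (0.48), Tmem97 (0.45), Clu (-0.090) and Sftpc (0.35). With 1 library left out, the ranges were -2.49 (without YFP+ replicate 1) to 6.77 for Scgb1a1, -1.88 (without YFP+ replicate 1) to 3.92 for Ccl20, -0.37 to 0.041 (without RFP+ replicate 2) for Krt8, -0.34 (without YFP+ replicate 1; -0.03 without RFP+ replicate 2) to 1.79 for Gzme and -1.10 to 0.12 (without YFP+ replicate 2) for Hmga2. Members numbered 102, so counts of a few UMIs limit genes under about 4.43 CPM in replicate 1.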
